A study of Homo sapiens with 4 samples.

Results

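The Polycomb group genes, the genes that write and erase DNA methylation, the H3K27 demethylases and a set of deacetylases were described in HGC-27 cells with and without RUNX3. The 33 genes were taken by name from the 25559 gene symbols of the count tables by a rule that uses no measured value, although the list was drawn up with earlier results of these data known. HGC-27 cells are an established human line of gastric cancer. RNA-seq of polyadenylated RNA was available for 2 libraries of wildtype cells, called control, and 2 libraries of RUNX3 knock-out (RUNX3 KO) cells. The knock-out was made with CRISPR/Cas9 and a guide against an exon of RUNX3, a RUNX-family transcription factor, delivered by lentivirus and followed by puromycin selection and single-cell cloning. Neither the number of clones nor separate cultures behind the libraries are named, so p-values measure the spread between these libraries, which may be technical. The controls are labelled wildtype with no vector or selection stated, so genotype, clone, viral vector and puromycin selection cannot be told apart.

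Polycomb proteins keep genes silent through linked complexes. Polycomb repressive complex 2 (PRC2) methylates histone H3 at lysine 27, with EZH1 or EZH2 as the enzyme, and complex 1 (PRC1) ubiquitinates histone H2A through RING1 or RNF2. DNA methyltransferases add methyl groups to cytosines, TET dioxygenases oxidize them, and deacetylases remove acetyl groups from histones and other proteins.

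Gene counts summed to 11731401 and 11733407 for control and to 11898276 and 12110876 for RUNX3 KO libraries. RUNX3 itself had 351 and 308 counts in control and 225 and 185 in RUNX3 KO cells, so transcripts of the edited gene were still counted. Its log2 fold change was -0.70 (SE 0.0961, edgeR quasi-likelihood test with Benjamini-Hochberg adjustment, adjusted p = 1.43e-09), and without RUNX3 KO replicate 2 it was -0.55 with an adjusted p of 0.0649. Gene counts do not show whether these transcripts carry the edit. The paper reports that the deletion was checked in mRNA and protein after cloning, and that RUNX3 protein was absent by immunoblot. Most of the 15 epithelial and gastric markers were absent or near 0: 7 (KRT19, KRT20, MUC5AC, TFF1, TFF2, GKN1 and CLDN18) had 0 counts in all 4 libraries, and EPCAM had at most 1 count. CDX2 (110 and 114 counts in control, 81 and 91 in RUNX3 KO cells), MUC1 (87 and 100, 86 and 85) and, at lower counts, CDH1 (15 and 21, 30 and 32) and KRT8 (19 and 11, 72 and 81) were detected, and the list summed to 19.99 and 21.1 CPM in control and 23.0 and 25.2 CPM in RUNX3 KO cells. In bulk RNA, fewer cells that express a gene and less RNA per cell cannot be told apart.

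All 33 genes were expressed above the filter on low counts, with 25 to 9312 counts per library. Levels are CPM, the count of a gene per 1000000 counts of its TMM-normalized library, and a gene is said to have risen or fallen where its adjusted p was under 0.05. By this criterion 14 of 33 genes (42.4%) changed, against 48.9% of the 12967 genes tested, so the share was near that of the whole transcriptome. Of these, 9 fell, beside 24.4% of all genes tested, and 5 rose, beside 24.5%. None reached a fold change of 2, which 6.12% of all genes did with an unadjusted p of at most 0.05 (4.01% lower and 2.11% higher in RUNX3 KO cells). Only PHC1 passed 1.5-fold, beside 13.4% of all genes. The changes were small: the median size of the log2 fold change was 0.10 over the 33 genes and 0.19 over all genes tested, and the signed medians were -0.02 and -0.0021. Control and RUNX3 KO libraries did not overlap in 24 of the 33 genes (72.7%, the same as the 72.7% of all genes tested).

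**Figure D1:**
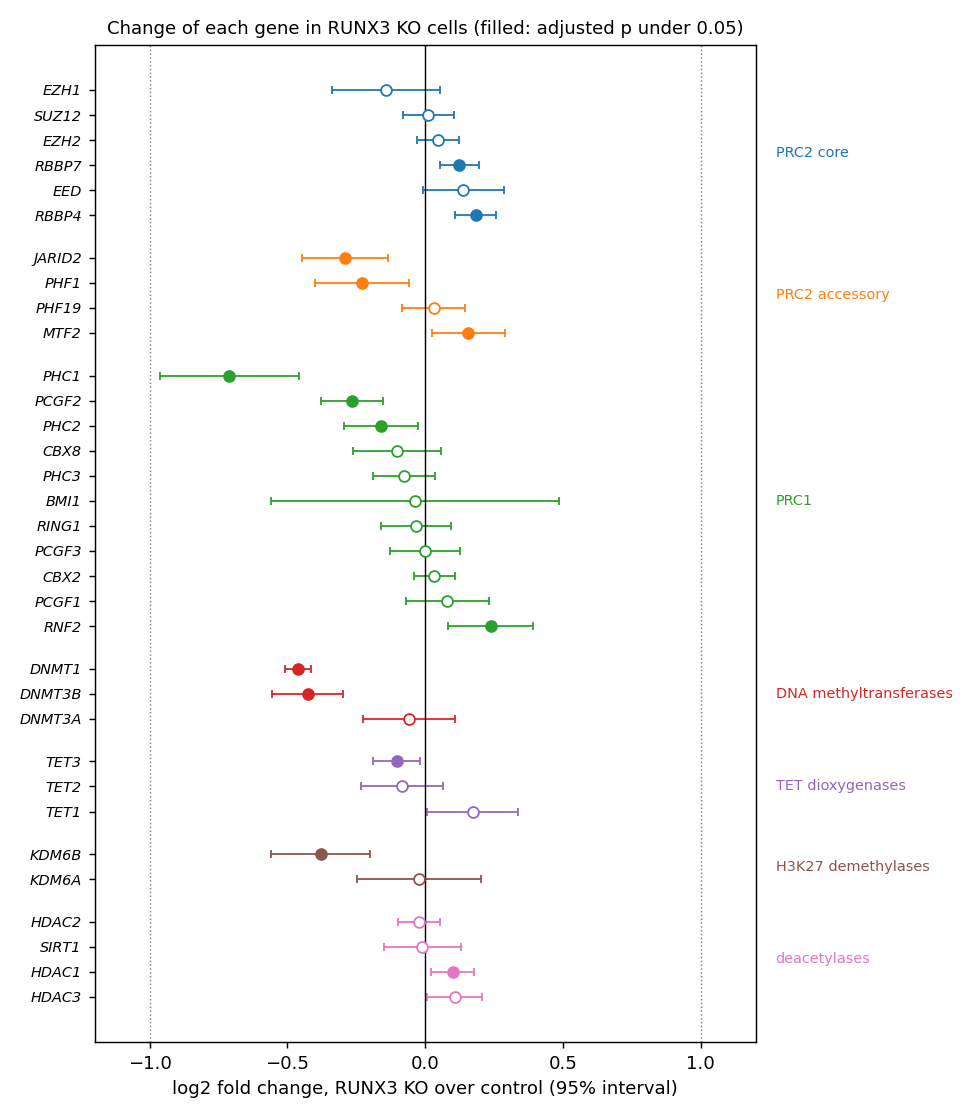
Log2 fold change of each of the 33 genes, RUNX3 KO over control, with its 95% interval from 2 libraries per group, grouped by role; filled points have an adjusted p under 0.05 and dotted lines mark a fold change of 2. All intervals lie inside the dotted lines, with PHC1, DNMT1 and DNMT3B farthest to the left.

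Of the 6 core genes of PRC2, 2 rose and none fell, beside 24.5% and 24.4% of all genes tested. The histone-binding subunits RBBP4 and RBBP7 were higher in RUNX3 KO cells, and EZH1, EZH2, EED and SUZ12 did not pass the test. EZH2, the main H3K27 methyltransferase of dividing cells, had 147 and 147 CPM in control and 155 and 149 CPM in RUNX3 KO cells. The KO libraries were a little higher without overlap, and the log2 fold change of 0.05 (95% interval -0.03 to 0.12, adjusted p = 0.328) did not pass. SUZ12, the scaffold of the complex, had 95.4 and 93.3 CPM against 96.2 and 94.1 CPM, and the groups overlapped. EED, which binds trimethylated H3K27, had 32.4 and 34.9 CPM against 37.2 and 36.9 CPM (log2 fold change 0.14, adjusted p = 0.118). EZH1, the second methyltransferase, went the other way, with 20.7 and 20.2 CPM against 17.9 and 19.1 CPM (log2 fold change -0.14, 95% interval -0.34 to 0.05, adjusted p = 0.236). Per kb of exon, EZH2 stood at 55.5 CPM and EZH1 at 4.41 CPM in control cells.

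RBBP4 and RBBP7 are histone chaperones that PRC2 shares with deacetylase and nucleosome-assembly complexes. RBBP4 had 147 and 145 CPM in control and 164 and 168 CPM in RUNX3 KO cells. It was 13.5% higher in RUNX3 KO cells, beyond the spread between libraries (log2 fold change 0.18, SE 0.0378, adjusted p = 2.57e-05). RBBP7 had 178 and 176 CPM against 196 and 189 CPM, with both KO libraries higher (8.92%, log2 fold change 0.12, SE 0.0356, adjusted p = 0.00247). Without RUNX3 KO replicate 2 the adjusted p rose to 0.0528 for RBBP4 and 0.0577 for RBBP7, and without RUNX3 KO replicate 1 it was 0.104 for RBBP7. With DESeq2 it was 0.0814 for RBBP7. Exons of RBBP4 lie opposite those of SYNC over 27.4% of their length, and SYNC rose from 138 and 129 counts to 313 and 340 counts. Whether reads were counted by strand is not stated, and the part of SYNC in the RBBP4 value was not tested. The opposite gene at RBBP7 is TXLNG (7.85% of its exonic length, log2 fold change 0.08, adjusted p = 0.270).

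The accessory subunits, which bring PRC2 to its sites, moved in both directions. Of 4 genes 2 fell and 1 rose, beside 24.4% and 24.5% of all genes tested. JARID2 (chr6:15246300-15522273, plus strand, GRCh37), a DNA-binding cofactor of PRC2, had 38.6 and 33.2 CPM in control and 28.6 and 30.0 CPM in RUNX3 KO cells. Both KO libraries were below both control libraries, and the mean fell by 18.3% (log2 fold change -0.29, SE 0.0789, adjusted p = 0.00121). Of the Polycomb-like proteins, PHF1 had 29.1 and 29.3 CPM against 27.2 and 22.7 CPM, MTF2 had 41.0 and 48.1 CPM against 50.8 and 48.5 CPM, and PHF19 had 58.0 and 64.2 CPM against 63.0 and 61.9 CPM. PHF1 fell (log2 fold change -0.23, adjusted p = 0.0208), MTF2 rose by 11.4% (log2 fold change 0.16, adjusted p = 0.0456, the largest adjusted p of the 14), and PHF19 overlapped between the groups. The JARID2 call was lost without control replicate 1 (log2 fold change -0.18, adjusted p = 0.127), RUNX3 KO replicate 1 (0.219) or RUNX3 KO replicate 2 (0.163). For MTF2 these adjusted p-values were 0.684, 0.497 and 0.327, and its log2 fold change was 0.05 without control replicate 1 and 0.27 without control replicate 2. PHF1 lost its call without control replicate 1 (adjusted p = 0.0549), control replicate 2 (0.0644) or RUNX3 KO replicate 2 (log2 fold change -0.10, adjusted p = 0.424), and stood at -0.36 without RUNX3 KO replicate 1. With DESeq2 the adjusted p was 0.0804 for JARID2, 0.249 for PHF1 and 0.326 for MTF2, and without a filter it was 0.0674, 0.154 and 0.246. MTF2 passed in 5 of 14 alternatives and also lost its call under all 3 other scalings and the stricter filter (adjusted p up to 0.0918).

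Of 11 PRC1 genes 3 fell and 1 rose, beside 24.4% and 24.5% of all genes tested. Among the 11 was the gene with the largest change of the 33. PHC1 (chr12:9066492-9094063, plus strand, GRCh37) is a polyhomeotic subunit whose SAM domain links PRC1 complexes to each other. It had 178 and 166 counts in control and 103 and 109 counts in RUNX3 KO cells, or 15.1 and 14.1 CPM against 8.73 and 9.07 CPM. Both KO libraries were well below both controls, and the mean fell by 38.9% (log2 fold change -0.71, SE 0.126, 95% interval -0.96 to -0.46, adjusted p = 1.28e-06). The size of this change lay at percentile 89.3 of all genes tested. Of its relatives, PHC2 fell less, from 44.2 and 48.6 CPM to 41.1 and 41.8 CPM (log2 fold change -0.16, adjusted p = 0.0398), and PHC3 had 64.7 and 60.9 CPM against 60.5 and 58.6 CPM (log2 fold change -0.08, adjusted p = 0.272). The PHC2 call was lost without control replicate 2 (log2 fold change -0.09, adjusted p = 0.386), RUNX3 KO replicate 1 (0.289) or RUNX3 KO replicate 2 (0.235), with DESeq2 (0.302) and without a filter (0.129). PHC1 shares 20.5% of its exonic length with M6PR on the other strand, and M6PR was slightly higher in RUNX3 KO cells (log2 fold change 0.13, adjusted p = 0.00846). Per kb of exon, PHC1 was among the lowest of the 33 genes, at 2.70 CPM in control and 1.65 CPM in RUNX3 KO cells.

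Of the catalytic subunits of PRC1, RNF2 rose and RING1 did not pass the test, and the difference between their changes was not tested by a model. RNF2, the main H2A ubiquitin ligase, had 29.2 and 34.9 CPM in control and 35.9 and 39.7 CPM in RUNX3 KO cells. It rose by 17.9% without overlap, although 1 control library was close to 1 KO library (log2 fold change 0.24, SE 0.0776, adjusted p = 0.00763). Without control replicate 1, RUNX3 KO replicate 1 or RUNX3 KO replicate 2 its adjusted p was 0.318, 0.170 and 0.439, and its log2 fold change ranged from 0.12 without control replicate 1 to 0.37 without control replicate 2. With DESeq2 its adjusted p was 0.169, and without a filter 0.150. RING1, the other ligase, had 49.7 and 49.5 CPM against 49.5 and 47.5 CPM, a log2 fold change of -0.03 with a 95% interval of -0.16 to 0.09.

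The PCGF proteins, which define the variants of PRC1, passed the test in 1 of 4 members, beside 48.9% of all genes tested. PCGF2 (chr17:36890151-36906070, minus strand), also known as MEL18, had 65.4 and 66.4 CPM in control and 54.5 and 55.1 CPM in RUNX3 KO cells. The libraries of each group lay close together and far from the other group, and the mean fell by 16.8% (log2 fold change -0.27, SE 0.0571, adjusted p = 4.92e-05). Exons of PCGF2 lie opposite those of CISD3 over 64.7% of their length, and CISD3 rose (log2 fold change 0.40, adjusted p = 1.16e-06). BMI1, the relative of PCGF2 best known as a stem cell and cancer gene, had few counts, 37 and 25 in control and 34 and 27 in RUNX3 KO cells. At these counts its log2 fold change could lie between -0.56 and 0.49. On the same strand, 28.2% of its exonic length is shared with the read-through gene COMMD3-BMI1, which was listed with 0 counts in all 4 libraries. Reads that fit both genes may have been left uncounted as ambiguous. The BMI1 count may therefore be too low, and the 0 does not show that read-through was absent. PCGF1 and PCGF3, of the variant complexes, overlapped between the groups (log2 fold changes 0.08 and -0.00), as did CBX8, a chromodomain reader of H3K27 methylation (log2 fold change -0.10, 95% interval -0.26 to 0.06). CBX2, another reader, had 158 and 157 CPM against 159 and 163 CPM (log2 fold change 0.03, adjusted p = 0.487).

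Of the 3 DNA methyltransferases, 2 fell, beside 24.4% of all genes tested, with DNMT1 the most precisely measured of the 33 genes. DNMT1 (chr19:10244018-10341962, minus strand) copies methylation onto the new strand after replication. It had 789 and 783 CPM in control and 566 and 576 CPM in RUNX3 KO cells. The KO libraries were both far below the controls, and the mean fell by 27.4% (log2 fold change -0.46, SE 0.0243, 95% interval -0.51 to -0.41, adjusted p = 1.15e-30). Most genes around DNMT1 fell too, with a median log2 fold change of -0.36 over the 40 nearest tested genes, which leaves -0.10 for DNMT1 after subtraction. DNMT1 was also the most highly expressed of the 33 genes per kb of exon, at 149 CPM in control and 108 CPM in RUNX3 KO cells. DNMT3B (chr20:31350191-31397165, plus strand), a de novo methyltransferase, had 55.6 and 55.6 CPM against 39.9 and 42.8 CPM. It fell by 25.6% without overlap (log2 fold change -0.43, SE 0.0643, adjusted p = 2.02e-08), with 12.8 CPM per kb of exon in control and 9.53 in RUNX3 KO cells. DNMT3A, the other de novo enzyme, had 27.4 and 27.2 CPM against 25.2 and 27.2 CPM, a log2 fold change of -0.06 with a 95% interval of -0.23 to 0.11. Summed over the 3 genes, of which DNMT1 made up most, the level went from 872 and 866 CPM to 631 and 646 CPM. Of 25 proliferation markers, 17 rose and 5 fell (beside 24.5% and 24.4% of all genes tested), with sums of 7625 and 7647 CPM in control and 8254 and 8190 CPM in RUNX3 KO cells and no marker at 0. The other 3, MCM4, E2F1 and CCNE2, did not pass the test, and the part of these markers in the DNMT values was not tested.

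Of the genes that remove methyl marks, KDM6B fell, as did TET3 to a smaller extent, and TET1, TET2 and KDM6A did not pass the test. TET3 had 133 and 123 CPM in control and 120 and 118 CPM in RUNX3 KO cells, and fell by 6.94% (log2 fold change -0.10, SE 0.0423, adjusted p = 0.0346). That call was lost without control replicate 1 (log2 fold change -0.04, adjusted p = 0.529), RUNX3 KO replicate 1 (0.287) or RUNX3 KO replicate 2 (0.397), with DESeq2 (0.289) and without a filter (0.191), and the log2 fold change was -0.16 without control replicate 2. TET1 had 25.2 and 26.7 CPM against 29.7 and 28.7 CPM (log2 fold change 0.17, adjusted p = 0.0786), and TET2 had 37.1 and 34.2 CPM against 33.6 and 33.7 CPM (log2 fold change -0.09, adjusted p = 0.363). Neither passed, although their groups did not overlap. KDM6B (chr17:7737535-7758114, plus strand), an H3K27 demethylase also called JMJD3, had 25.3 and 29.8 CPM against 21.4 and 21.0 CPM. Both KO libraries were lower, and the mean fell by 23.1% (log2 fold change -0.38, SE 0.0902, adjusted p = 0.000237), and the adjusted p was 0.129 without RUNX3 KO replicate 1 and 0.160 without RUNX3 KO replicate 2. KDM6A, the X-linked demethylase also called UTX, had 14.1 and 14.7 CPM against 14.7 and 13.8 CPM, and the groups overlapped (95% interval of the log2 fold change -0.25 to 0.20).

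Of the 4 deacetylases 1 passed the test, beside 48.9% of all genes tested. HDAC1, a catalytic subunit of the SIN3, NuRD and CoREST complexes, had 136 and 142 CPM in control and 146 and 151 CPM in RUNX3 KO cells. It rose by 7.22% (log2 fold change 0.10, SE 0.0393, adjusted p = 0.0273), and without control replicate 1, RUNX3 KO replicate 1 or RUNX3 KO replicate 2 the adjusted p was 0.252, 0.133 and 0.304. The HDAC1 call was also lost with library size alone (adjusted p = 0.0829), upper-quartile scaling (0.0867), no filter (0.0956) and DESeq2 (0.244). HDAC2, its close relative, overlapped between the groups, with 151 and 147 CPM against 144 and 150 CPM. HDAC3, the enzyme of the NCoR and SMRT complexes, had 75.2 and 79.4 CPM against 83.3 and 83.2 CPM (log2 fold change 0.11, adjusted p = 0.0709), and passed only without control replicate 2 (adjusted p = 0.0491). SIRT1, a deacetylase that needs NAD, had 39.0 and 39.0 CPM against 39.3 and 38.2 CPM, a log2 fold change of -0.01 with a 95% interval of -0.15 to 0.13.

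**Figure D2:**
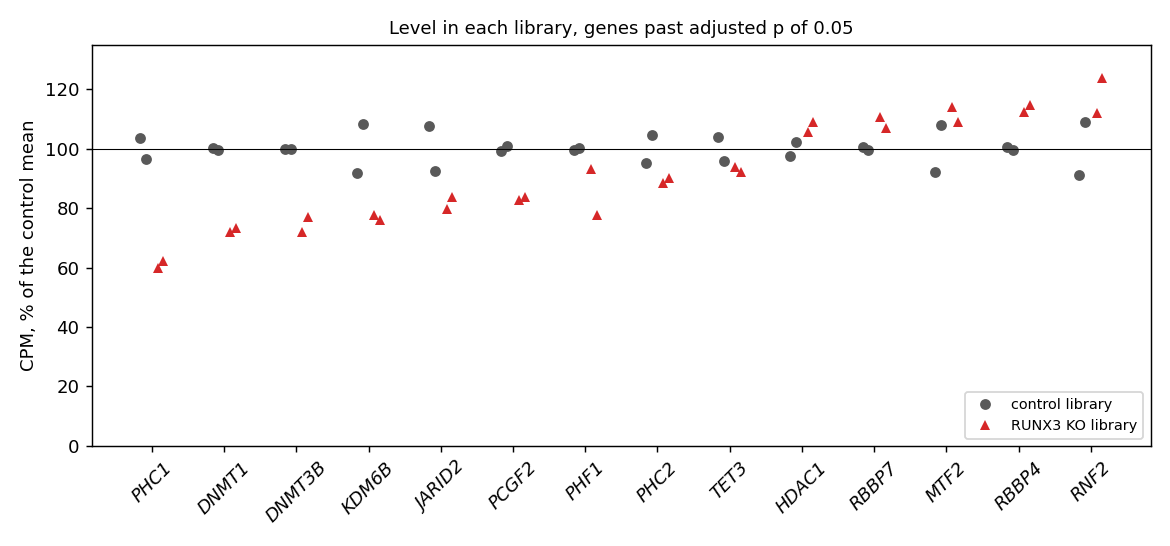
CPM of each of the 14 genes that changed, in percent of the mean of the 2 control libraries, with 1 point per library. The KO points of PHC1 lie lowest, those of DNMT1, DNMT3B and KDM6B lie near each other above them, and the libraries of MTF2, TET3, RNF2 and HDAC1 come closest to the other group.

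Within pairs of related genes, the shares of DNMT3A and DNMT3B, KDM6A and KDM6B, and RING1 and RNF2 shifted most with all 4 libraries. The share of the first gene in the pair was computed from CPM per kb of exon. DNMT3A made up 18.5% and 18.4% of DNMT3A plus DNMT3B in control and 22.5% and 22.6% in RUNX3 KO cells. KDM6A made up 38.1% and 35.3% of KDM6A plus KDM6B in control and 43.0% and 42.1% in RUNX3 KO cells. RING1 made up 76.9% and 73.5% of RING1 plus RNF2 in control and 72.9% and 70.1% in RUNX3 KO cells, a difference of -3.69 points that was -1.99 without control replicate 1 and -2.26 without RUNX3 KO replicate 2, where MTF2 of MTF2 plus PHF19 shifted more, by 2.53 points. In none of these pairs did the groups overlap, and in each the exact two-sided permutation test gave p = 0.333, the smallest value that 2 against 2 libraries allow. With all libraries the other pairs had smaller differences: HDAC1 of HDAC1 plus HDAC2 by 1.29 points, MTF2 of MTF2 plus PHF19 by 2.17 points, CBX2 of CBX2 plus CBX8 by 1.49 points and RBBP4 of RBBP4 plus RBBP7 by 0.652 points. With 1 library left out these differences ranged from 0.744 to 1.83 points for HDAC1, from 1.46 to 2.89 for MTF2, from 0.683 to 2.29 for CBX2 and from 0.207 to 1.10 for RBBP4. Without division by length the differences were 2.14 points for HDAC1, 1.02 for RBBP4 and -1.32 for EZH1. EZH1 made up 7.43% and 7.29% of EZH1 plus EZH2 in control and 6.20% and 6.85% in RUNX3 KO cells, a difference of -0.839 points that was -0.515 without RUNX3 KO replicate 1. PCGF2 made up 96.2% to 97.7% of PCGF2 plus BMI1 in all 4 libraries, and those groups overlapped. Exons of BMI1 are shared with COMMD3-BMI1 and those of PCGF2 lie opposite CISD3, so the counts of both genes, and with them this share, may be off. The levels of the shares depend on the length used: by coding length the control means were 31.5% for DNMT3A, 12.2% for EZH1, 45.3% for RBBP4 and 48.5% for HDAC1, against 18.4%, 7.36%, 19.3% and 81.1% by exonic length, and each difference kept its sign.

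**Figure D3:**
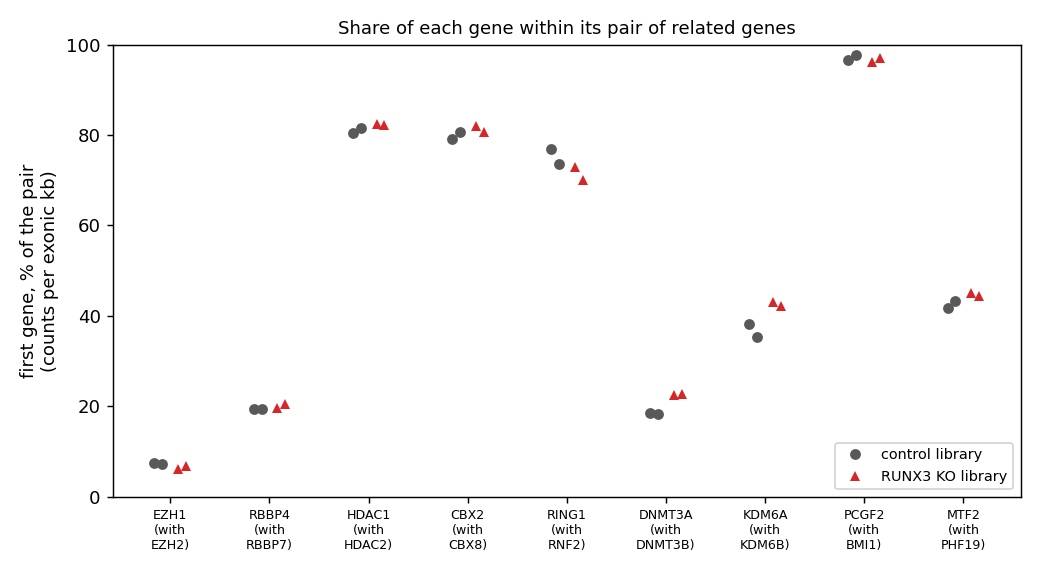
Share of the named gene within its pair, in percent of the pair's counts per kb of exon, with 1 point per library. The DNMT3A, KDM6A and RING1 shares differ most between control and RUNX3 KO libraries, and the PCGF2 share stays between 96.2% and 97.7%. The level of the PCGF2 share may be off because PCGF2 and BMI1 both overlap exons of other genes.

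Each gene was then set beside the 20 nearest tested genes on each side of it on the chromosome. Around DNMT1 on chromosome 19, with its neighbourhood median of -0.36, 35 of 40 genes had a negative log2 fold change. In the test 29 fell and 2 rose. The log2 fold change was as low as that of DNMT1 or lower in 11, among them ZNF846, which did not pass the test (adjusted p = 0.0571). The whole of chromosome 19 had a median of -0.06 over 890 genes, and 3.16% of 12084 such neighbourhoods had a median as low. DNMT3B on chromosome 20 and PHC1 on chromosome 12 stood apart from theirs, with neighbourhood medians of 0.00 and 0.07. For the other genes named above as changed, the neighbourhood median lay between -0.05 (TET3) and 0.08 (PHC2), and all 14 kept their sign after subtraction. Some differences became smaller by it: TET3 went to -0.05, RBBP7 to 0.08, RBBP4 to 0.12 and MTF2 to 0.10. The neighbours of BMI1 on chromosome 10 had a median of -0.35, with 31 of 40 lower, while BMI1 itself stood at -0.04. The 95% interval of BMI1, -0.56 to 0.49, includes that median, so these counts do not show that it departed from its region. The part of the neighbourhood in the DNMT1 value was not tested.

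**Figure D4:**
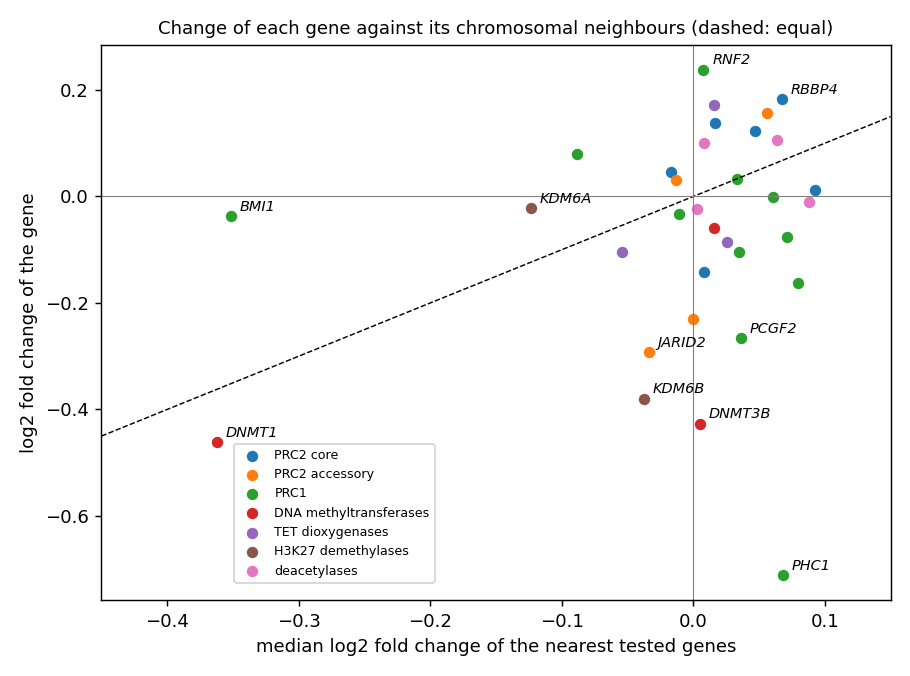
Log2 fold change of each of the 33 genes against the median log2 fold change of its nearest tested genes, with equality dashed and colours for the roles. DNMT1 lies close to the dashed line at a neighbourhood median of -0.36, whereas PHC1 and DNMT3B lie far below it at medians near 0.

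**Figure D5:**
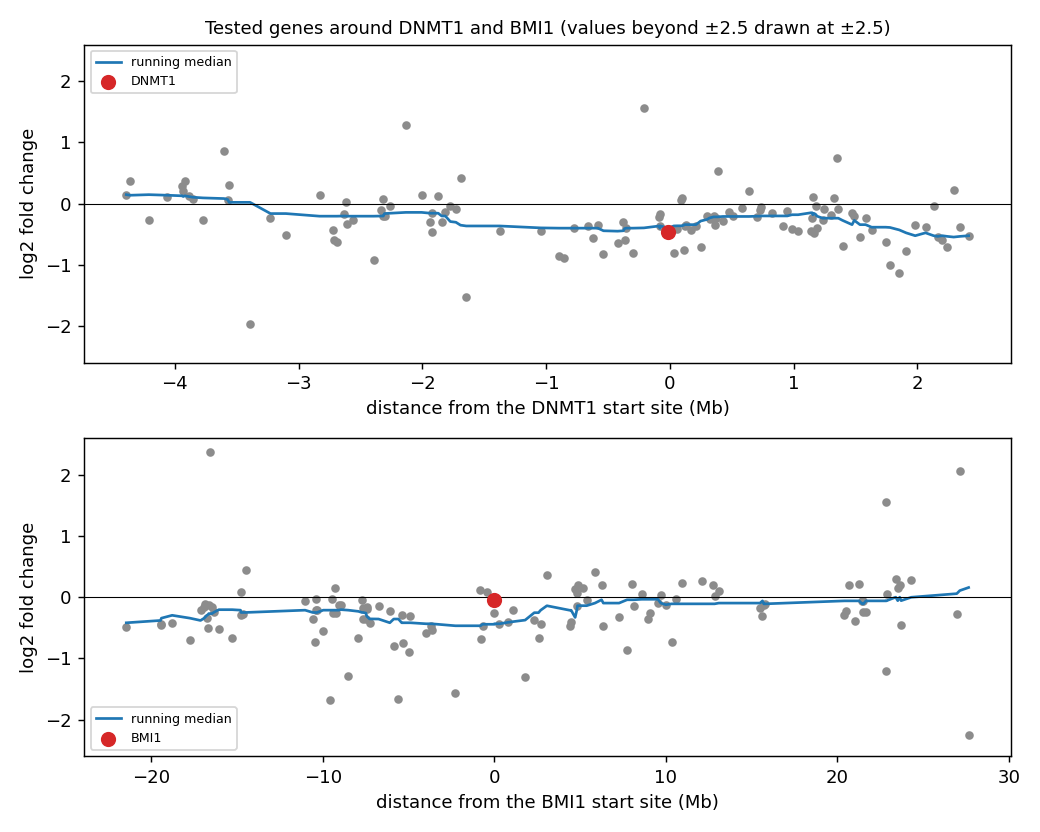
Log2 fold change of the tested genes around DNMT1 and BMI1 by distance from the start site in Mb, with a running median. Around DNMT1 most genes lie below 0, and BMI1 lies above the running median of its region, with a 95% interval (-0.56 to 0.49) that includes the neighbourhood median of -0.35.

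Promoter sequences are shown for JARID2 and KDM6B, which fell and hold letters of the RUNX core in the 250 bases before their start, and for PHC1 and DNMT1, which fell and hold none. They come from RefSeq (GRCh38.p14), each with 1 exact match in GRCh37, the build of the gene positions given here. The letters searched were TGTGGT and TGCGGT on both strands, and capitals mark them. The windows are chr6:15246050-15246299 on the plus strand for JARID2, chr17:7737285-7737534 on the plus strand for KDM6B, chr12:9066855-9067104 on the plus strand for PHC1 and chr19:10305812-10305879 on the minus strand for DNMT1. The DNMT1 stretch was shortened to 68 bases because the other 182 bases lie in exons of some annotated transcripts.

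JARID2: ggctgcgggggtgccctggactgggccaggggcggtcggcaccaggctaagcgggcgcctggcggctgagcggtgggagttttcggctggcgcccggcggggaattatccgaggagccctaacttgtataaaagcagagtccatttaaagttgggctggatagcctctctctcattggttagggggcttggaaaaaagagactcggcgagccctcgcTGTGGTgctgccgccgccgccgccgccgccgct

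KDM6B: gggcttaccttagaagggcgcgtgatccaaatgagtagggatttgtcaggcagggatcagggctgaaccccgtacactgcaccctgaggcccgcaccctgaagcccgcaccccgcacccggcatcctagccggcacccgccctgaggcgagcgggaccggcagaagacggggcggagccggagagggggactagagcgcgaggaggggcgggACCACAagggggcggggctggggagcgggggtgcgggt

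PHC1: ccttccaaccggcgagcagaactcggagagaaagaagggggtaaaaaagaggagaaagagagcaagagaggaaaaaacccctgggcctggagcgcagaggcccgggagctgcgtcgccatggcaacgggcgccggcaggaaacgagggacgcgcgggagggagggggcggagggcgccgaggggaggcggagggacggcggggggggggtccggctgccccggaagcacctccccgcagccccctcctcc

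DNMT1: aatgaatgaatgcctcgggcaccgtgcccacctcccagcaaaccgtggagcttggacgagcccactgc

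The letters begin 33 bases before the start of JARID2 and 38 bases before that of KDM6B, on opposite strands. Of the 33 genes, 31 had windows in the table (CBX2 and CBX8 did not), 49 windows in all. RUNX letters occurred in 5 of 49 windows (10.2%), of JARID2, KDM6B, SIRT1 and TET1, beside 16.3% of 35116 promoter windows in the table. Of these 4 genes, JARID2 and KDM6B fell, and SIRT1 and TET1 did not pass the test. The E2F letters TTTCCCGC, TTTGGCGC, TTTCGCGC and TTTGCCGC occurred in 3 of 49 windows (6.12%, beside 2.79% of all), of EZH1, PHF19 and SUZ12, none of which passed the test. The letters CCAAT occurred in 18 of 49 windows (36.7%, beside 32.0%). Such matches describe the sequence and do not show whether a factor binds there, which was not tested.

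Of the further genes of these pathways, 105 were tested, and 29 fell and 26 rose (52.4%, near the 48.9% of all genes tested), with a median log2 fold change of 0.01. A fold change of 2 was passed by 4 lower and 2 higher of the 105 genes, shares close to the 4.01% and 2.11% of all genes tested. Among other PRC1 subunits, 7 of 21 fell and 6 rose, where 24.4% of all genes tested fell and 24.5% rose. AUTS2, an activating partner of the PCGF3 and PCGF5 complexes, fell from 724 and 705 counts to 290 and 343 counts (log2 fold change -1.19, adjusted p = 4.86e-27). CBX7, a chromodomain reader, fell from 39 and 27 counts to 15 and 16 counts (log2 fold change -1.10, adjusted p = 0.00145), in a neighbourhood on chromosome 22 with a median of -0.51. Of 4 other PRC2 partners 1 rose, EPOP (log2 fold change 0.21, adjusted p = 0.000686). Of 6 genes for H2A deubiquitination 1 fell, ASXL3, a partner of the deubiquitinase BAP1. It had 47 and 49 counts in control and 2 and 2 counts in RUNX3 KO cells, a ratio of 24.2 (95% counting interval 9.16 to 90.7).

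Among 13 genes that maintain or read DNA methylation, 2 fell and 4 rose, beside 24.4% and 24.5% of all genes tested. UHRF2, a relative of the DNMT1 partner UHRF1, rose from 398 and 397 counts to 814 and 808 counts (log2 fold change 1.02, adjusted p = 1.44e-25), in a neighbourhood on chromosome 9 with a median of 0.86. UHRF1, named after its value was seen, rose with a log2 fold change of 0.29 (adjusted p = 6.56e-10) while DNMT1 fell. Of 8 other class I, II and IV deacetylases, 6 fell (beside 24.4% of all genes tested; 4 without a filter on low counts) and HDAC6 and HDAC9 did not pass the test, with a median of -0.20. Of the 6, HDAC10 lies on chromosome 22 in a neighbourhood with a median of -0.53. HDAC4, a class IIa deacetylase, fell from 761 and 716 counts to 518 and 525 counts (log2 fold change -0.52, adjusted p = 1.11e-11) in a neighbourhood with a median of 0.03. Of 6 other sirtuins 1 fell, SIRT2 (log2 fold change -0.33, adjusted p = 0.00177), and 1 rose, SIRT7, named after its value was seen.

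Of 26 corepressor genes, whose products carry HDAC1, HDAC2 and HDAC3, 6 fell and 9 rose. For this list and those that follow, the shares over all genes tested were 24.4% lower and 24.5% higher. SAP30, a subunit of the SIN3 complex, rose from 498 and 507 counts to 1039 and 1067 counts (log2 fold change 1.05, adjusted p = 3.99e-30). Of 13 trithorax and H3K4 methylation genes, which do not include KMT2A, KMT2B and KMT2D because their symbols were not matched, 4 fell and 2 rose. KDM5B, an H3K4 demethylase, fell from 219 and 201 counts to 95 and 107 counts (log2 fold change -1.07, adjusted p = 2.18e-12). Of 8 genes for H3K27 acetylation and H3K36 methylation 2 fell and 3 rose. EP300, an H3K27 acetyltransferase, fell from 2070 and 2114 counts to 1396 and 1450 counts (log2 fold change -0.57, adjusted p = 1.65e-23), and it too lies on chromosome 22, in a neighbourhood with a median of -0.51.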

How the data were processed

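RNA-seq of control and RUNX3 KO HGC-27 cells was available as 1 table of raw counts per gene symbol for each library, deposited by the authors without normalization. The submitters' processing notes name HISAT2 2.1.0, HTSeq and hg19, whereas the methods of the paper name STAR and featureCounts; the strand setting is not given in the sources used here. The 5 rows without a gene (25.9% to 28.1% of all counts) were left out. The analysis used edgeR 4.0.16 under R 4.3.3 (filterByExpr at a count of 10 and a total of 15, TMM, glmQLFit, glmQLFTest) and Benjamini-Hochberg adjustment over 12967 genes, after a test on simulated data. Replicates differed slightly more than sampling noise (chi-square per degree of freedom 1.22 and 1.18, against 17.1 and 17.3 between groups).

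The 33 genes and the other lists were chosen with earlier results of these data known. Genes outside the 33 were named where they passed a fold change of 2 with an unadjusted p of 0.05, or else by the smallest p of their list. Of 202 listed symbols 199 matched the tables. Positions and exonic lengths came from GENCODE on GRCh37 and covered 93.2% of tested genes. The ratio for a gene with at most 3 counts has an exact interval that covers counting error only.

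Alternatives were other scalings (DESeq2's size factors, library size alone, upper quartile), other filters, DESeq2 1.42.0, edgeR's exact test and newer quasi-likelihood method, limma-voom (limma 3.58.1), a replicate block and each library left out. Coding lengths and leaving out genes that overlap others were added after seeing the data.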

Additional observations from a re-analysis of the deposited data

Results flagged for a closer look

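Reads that the counting put in the row for ambiguous assignment, which no comparison used, made up 0.919% of all counts in the RUNX3 KO libraries and 0.878% in the control libraries, with SDs of 0.00533 and 0.00111 over 2 libraries each. The difference was not tested, and its part in the values of the overlapping genes PCGF2, RBBP4, PHC1, RBBP7 and BMI1 was not tested.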

How the results depend on the processing

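PHC1, PCGF2, DNMT1 and DNMT3B passed the test under all 14 alternatives to the processing. The number of the 33 genes that fell, 9, became 5 without a filter, 5 with DESeq2, and 4 to 7 when 1 library was left out, lowest without RUNX3 KO replicate 2. The number that rose, 5, became 3 with library size alone, 3 with upper-quartile scaling, 2 without a filter, 1 with DESeq2, 3 without the genes that overlap others, and 0 to 6 when 1 library was left out. Over all genes tested the share past the threshold also dropped, to 27.8% without a filter, 28.5% with DESeq2 and 20.1% without RUNX3 KO replicate 2. Without the genes that overlap others, PHC1 and PCGF2 among them, 7 of the 33 genes fell. At a minimum fold of 1.5, 1 gene was lower. Without a filter, the lists had 1 lower gene for DNA methylation maintenance and reading, 2 higher other PRC1 subunits, and 1 higher gene for H3K27 acetylation and H3K36 methylation. RUNX3 ranged from -0.86 to -0.55 when 1 library was left out. The difference in the PCGF2 share ranged from -1.04 to 0.0779 points.

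The replicate numbers are shared between groups without a stated pairing, and the deviations of same-numbered libraries correlated at 0.0218 over genes. With the replicate number as a block, 14 of the 33 genes passed, the same 14.

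Under these alternatives 19 sign changes occurred, in genes that did not pass the test. Subtracting the neighbourhood median also turned SUZ12 to -0.08, BMI1 to 0.31 and KDM6A to 0.10. With 1 library left out, the log2 fold change ranged from -0.00609 to 0.0282 for SUZ12, from -0.0400 to 0.104 for PHF19, from -0.293 to 0.273 for BMI1, from -0.0187 to 0.176 for PCGF1, from -0.0828 to 0.0858 for PCGF3, from -0.0626 to 0.0210 for KDM6A, from -0.0535 to 0.00925 for HDAC2 and from -0.0287 to 0.0109 for SIRT1. SUZ12 was also -0.00815 with library size alone and -0.00887 with upper-quartile scaling. PCGF3 was 0.000441 with DESeq2's size factors, 0.00250 without a filter, 0.000456 with DESeq2, 0.00231 with limma-voom and 0.000768 with the replicate block. The causes were not tested. The standard error was largest for BMI1, the gene with the fewest counts, at 0.262.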

Other observations

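Several genes of the wider pathways lay in neighbourhoods that moved with them. On chromosome 22, CBX6 (log2 fold change -0.57), CBX7 (-1.10), L3MBTL2 (-0.36), HDAC10 (-0.79) and EP300 (-0.57) were all lower in RUNX3 KO cells, with neighbourhood medians between -0.54 and -0.48. On chromosome 12, KDM5A (0.63, neighbourhood median 0.48) and CHD4 (0.46, neighbourhood median 0.30) were higher, while PHC1 on the same chromosome fell with a neighbourhood median of 0.07. These genes, apart from CBX7, EP300 and PHC1, were chosen after their values were seen.

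Of 6 fibroblast markers, 5 fell, beside 24.4% of all genes tested, with sums of 452 and 450 CPM in control and 333 and 329 CPM in RUNX3 KO cells. The changes were uneven. Log2 fold changes were -2.33 for PDGFRA, -1.25 for PDGFRB, -0.42 for LUM, -0.39 for DCN and -0.28 for THY1, and FAP did not pass the test (-0.03). The haematopoietic markers summed to 1.69 and 2.80 CPM in control and 1.69 and 1.41 CPM in RUNX3 KO cells, and the endothelial markers to 0.339 and 0.339 CPM and to 0.508 and 0.416 CPM. KRT8 had 19 and 11 counts in control and 72 and 81 counts in RUNX3 KO cells.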
